A study of Mus musculus with 3 samples.

Results

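Transcripts of 6 receptor genes of macrophages and monocytes were counted in single cells of mouse mammary tumours: Adgre1, Cx3cr1, Cd163, Folr2, Lyve1 and Ccr2. They are 6 of the 258 genes in the deposited tables, chosen by name and not by a measured value, and the tables also hold 27 blank codes that match no transcript. All sections came from tumours of MMTV-PyMT mice, in which the mouse mammary tumour virus promoter drives the polyoma middle T antigen in mammary epithelium and tumours form there. The 3 tumours, labelled as wild-type and as replicates 1 to 3, form a single untreated group with no normal gland and no control genotype, and the labels do not say what wild-type refers to. Each tumour is represented by 1 formalin-fixed, paraffin-embedded section imaged on a MERSCOPE, an instrument that runs MERFISH, in which barcoded fluorescent probes are read over repeated rounds of imaging and each decoded transcript is assigned to a segmented cell. The sources used here do not state the age of the animals.

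Macrophages of the mammary gland and its tumours come from monocytes recruited through the blood and from long-lived cells that settled in the tissue earlier. Adgre1 encodes F4/80, an adhesion receptor used as a general marker of mouse macrophages. Cx3cr1 is the receptor for the chemokine fractalkine, and Ccr2 is the chemokine receptor with which monocytes leave the bone marrow. Cd163 takes up haemoglobin bound to haptoglobin, and Folr2 is the folate receptor beta. Lyve1 binds hyaluronan and is carried both by lymphatic endothelium and by a class of tissue-resident macrophages that often also carry Folr2 and Cd163.

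After cells with fewer than 20 panel transcripts or an extreme volume were left out, 619770, 453995 and 673638 cells remained in tumours 1, 2 and 3, with a median of 98, 106 and 94 panel transcripts per cell. No cell identifier was shared between sections. Blank codes made up 0.481 to 0.503% of the decoded transcripts. Cells were clustered without the 6 receptors, and 1 cluster in which Ccl8, H2-Aa, H2-Eb1 and Irf8 were raised was called myeloid-like. It held 21067, 10112 and 8375 cells, or 3.40, 2.23 and 1.24% of the cells. The 9 myeloid markers on the panel summed to 31.3, 38.1 and 19.1 per 1000 panel transcripts there, against 6.50, 7.89 and 6.93 in all other cells. Of these markers 6, 6 and 2 exceeded the highest blank in tumours 1, 2 and 3. The myeloid markers Cd14, Clec4e, Ccr7, Ly6c2 and Nos2 were not among those raised. Cd14 averaged 4.99 per 1000, against 4.66 in the cells called epithelial-like below, and Clec4e 0.311 against 0.244. The 9 fibroblast markers summed to 64.1, 67.5 and 69.6 there, against 57.9, 59.6 and 42.5 in all other cells. The 12 epithelial markers were lower there, at 50.9, 47.4 and 42.2 against 80.2, 73.8 and 68.2. Csf3r, a receptor gene of neutrophils that some monocytes also carry, was also among the cluster's leading genes, at 11.2 ± 1.4 per 1000 (SD, n = 3). With S100a8 and S100a9, the other 2 neutrophil markers on the panel, it summed to 10.2, 13.4 and 12.2. Of these 3 markers 1, 2 and 1 exceeded the highest blank in tumours 1, 2 and 3. The 13 T or NK cell markers summed to 9.21, 8.30 and 6.70 per 1000 in the cluster against 2.98, 2.50 and 2.51 in all other cells. The cluster is therefore not shown to hold macrophages alone. The general macrophage genes Csf1r, Cd68 and Mrc1 were fixed as markers but are not among the 258 genes. The panel likewise held none of the fixed markers of lymphatic endothelium, B cells or mast cells.

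Levels below are receptor transcripts per 1000 panel transcripts, with blanks left out of the total, over all cells of a class. The number of probes per gene is not known here, so levels were compared between cells and not between genes. Over whole sections, Cx3cr1 was counted at 1.86, 1.44 and 0.601 per 1000 in tumours 1, 2 and 3. The highest of the 27 blanks stood at 0.476, 0.417 and 0.407, so Cx3cr1 exceeded every blank in every section. The other 5 receptors lay within the range of the blanks in all 3 sections. Their values were 0.109 to 0.328 for Adgre1, 0.165 to 0.226 for Cd163, 0.258 to 0.336 for Folr2, 0.158 to 0.189 for Lyve1 and 0.324 to 0.353 for Ccr2. A receptor level in a whole section, other than that of Cx3cr1, was therefore not distinguishable from decoding background, and the cell classes were described separately.

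In myeloid-like cells Adgre1 was counted at 3.84, 3.36 and 1.32 per 1000, and in epithelial-like cells, which made up 84.6 to 91.0% of the cells, at 0.185, 0.123 and 0.0942. The mean level was 21.2 times as high in the myeloid-like class. Cx3cr1 stood at 18.7, 19.1 and 7.67 per 1000 in myeloid-like cells and at 1.26, 1.13 and 0.522 in epithelial-like cells, a ratio of means of 15.6. For both genes the value of tumour 3 was the lowest in either class. Cd163 was at 2.40, 2.30 and 1.84 against 0.102, 0.105 and 0.127, a ratio of 19.6. For these 3 genes, and for the other receptors below, every myeloid-like value lay above every epithelial-like value. The share of all panel genes with such a gap was not counted. Tumours 1 and 2 lay closer to each other than to tumour 3 for Adgre1 and Cx3cr1, whose means in myeloid-like cells were 2.84 ± 1.34 and 15.2 ± 6.50 (SD, n = 3).

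The remaining receptors had smaller ratios. Folr2 was counted at 1.54, 0.925 and 1.09 per 1000 in myeloid-like and at 0.281, 0.268 and 0.247 in epithelial-like cells, 4.46 times as much on average. Lyve1 stood at 0.754, 0.471 and 0.652 against 0.132, 0.176 and 0.174, a ratio of 3.89. Ccr2 stood at 0.732, 0.794 and 0.388 against 0.352, 0.331 and 0.359, a ratio of 1.84, and in tumour 3 the classes were almost level. Because classes were drawn from the same cells, these differences are descriptions without a test.

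In tumours 1 and 2 all 6 receptors exceeded the highest blank in myeloid-like cells, which was 0.418 and 0.424 per 1000. In tumour 3 the code Blank-18 reached 3.63 and Blank-13 reached 2.16 per 1000, above every receptor but Cx3cr1. There, 53 myeloid-like cells held 5 or more transcripts of a single blank. Those cells held 138 per 1000 of Mmp3, a matrix metalloproteinase gene, but 0.488 of H2-Aa and 1.46 of Cx3cr1. Without them the highest blank of tumour 3 was 0.568 per 1000, and Adgre1 (1.33), Cx3cr1 (7.72), Cd163 (1.82), Folr2 (1.09) and Lyve1 (0.656) exceeded it, whereas Ccr2 (0.388) did not.

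**Figure D1:**
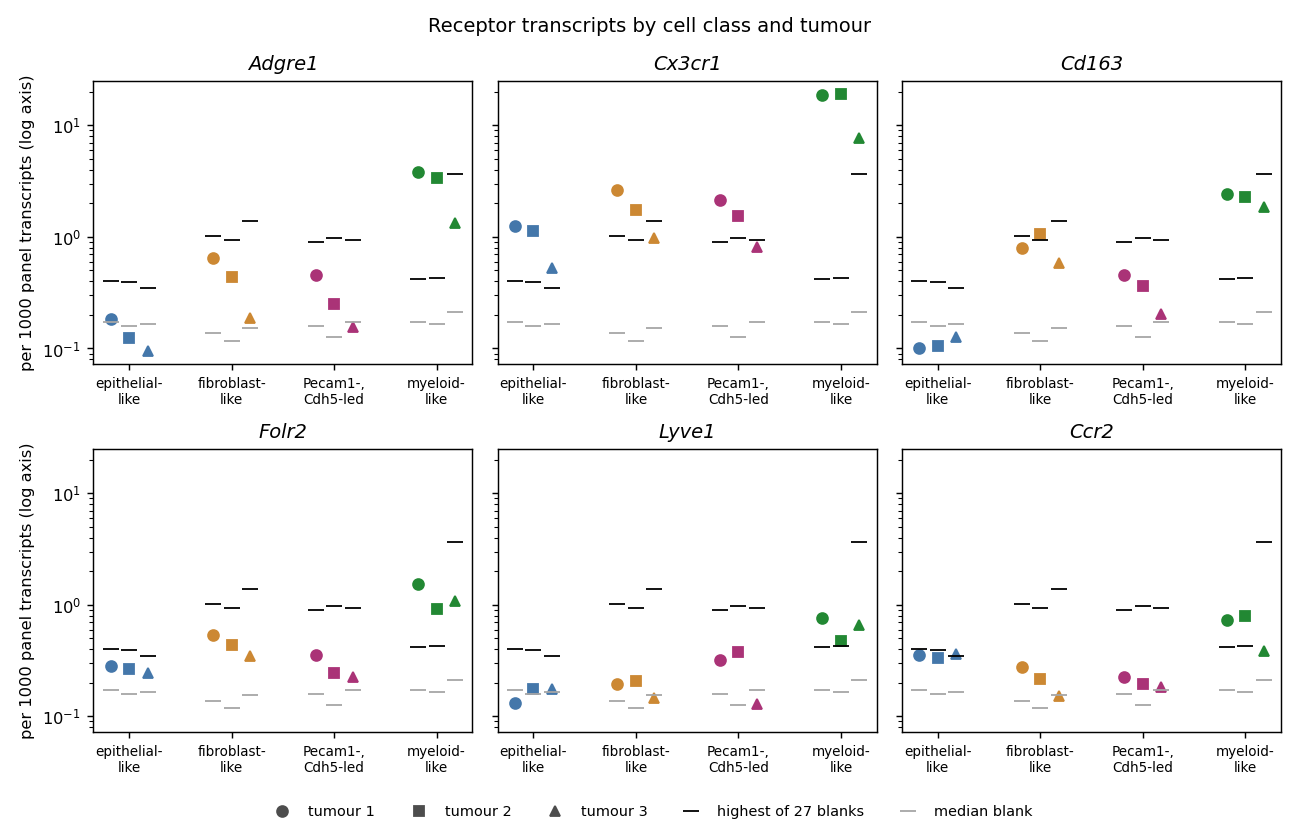
Level of each receptor in 4 cell classes, as transcripts per 1000 panel transcripts on a log axis, with 1 point per tumour and dashes for the highest and the median of the 27 blanks in the same cells. Adgre1, Cx3cr1 and Cd163 stand farthest above epithelial-like cells in the myeloid-like class (ratios of means 21.2, 15.6 and 19.6), and Cd163 is next highest in fibroblast-like cells.

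To compare tumours at equal depth, cells were thinned to 50 panel transcripts, and cells with fewer were left out. Cx3cr1 was then found in 46.7, 43.2 and 25.1% of myeloid-like cells and in 5.34, 4.98 and 2.49% of epithelial-like cells. Adgre1 was found in 16.7, 14.2 and 6.17% of myeloid-like cells, and before thinning in 23.2, 19.2 and 7.24%. Folr2 (3.60 to 5.61%), Cd163 (2.59 to 3.07%), Ccr2 (1.98 to 3.65%) and Lyve1 (2.06 to 2.36%) were each found in a small minority. Before thinning, 35.2, 44.1 and 64.5% of myeloid-like cells held no transcript of any of the 6 receptors, and an absent receptor in a cell of this depth does not show that the gene was off.

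Cells with 3 or more transcripts of a receptor were used to see where strong signals lay. There were 11044, 6071 and 1359 such cells for Cx3cr1 and 748, 620 and 225 for Cd163. For Adgre1 there were 606, 285 and 28, for Folr2 379, 135 and 80, for Lyve1 248, 123 and 49, and for Ccr2 96, 79 and 52. The median blank gave 6, 6 and 9 cells by the same rule and the highest 243, 222 and 402, so counts for Ccr2 in all tumours, and for Adgre1 and Lyve1 in tumour 3, did not pass every blank. Folr2 in tumours 2 and 3, Cd163 in tumour 3 and Lyve1 in tumour 2 also stayed below the highest blank.

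By class, 64.7, 60.7 and 60.7% of the Adgre1 cells were myeloid-like, the steadiest share among the 6 genes. Cx3cr1 cells were myeloid-like in 43.8, 34.0 and 31.9% and epithelial-like in 35.6, 50.4 and 48.1%. Of the Cd163 cells, 49.9, 30.8 and 44.9% were myeloid-like and 41.6, 62.1 and 51.1% fibroblast-like, with at most 2.10% epithelial-like. Lyve1 cells were mostly myeloid-like in tumours 1 and 3 (55.6 and 59.2%), but in tumour 2 the largest shares were fibroblast-like (42.3%) and in a cluster whose leading genes were the endothelial Pecam1 and Cdh5 (35.0%). The pericyte genes Rgs5 and Pdgfrb were also among the leading genes of that cluster, so it is not shown to be endothelial alone. Of the 52 Ccr2 cells of tumour 3, 96.2% were epithelial-like and none was myeloid-like. These shares are close to those of all kept cells of that tumour, 91.0 and 1.24%.

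**Figure D2:**
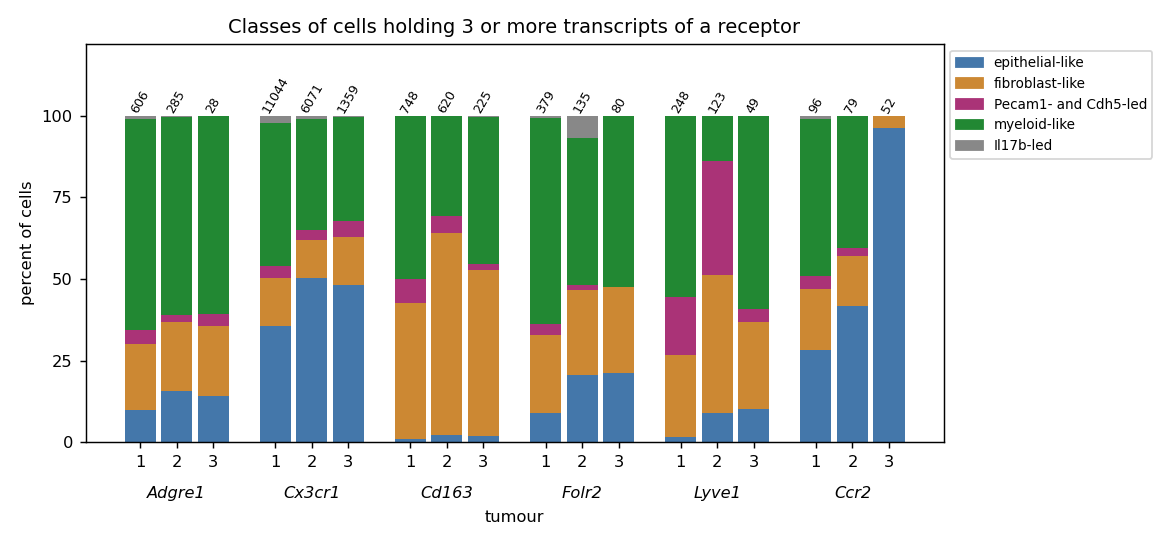
Class of the cells that held 3 or more transcripts of a receptor, as stacked percent of cells on a linear axis for each gene and tumour, with the number of cells above each bar. Cd163 cells are almost wholly myeloid-like or fibroblast-like, and Lyve1 cells of tumour 2 include 35.0% in the Pecam1- and Cdh5-led class. Ccr2 cells of tumour 3 are 96.2% epithelial-like, close to the 91.0% of all kept cells there.

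The other transcripts in these cells differed by class. The 138, 17 and 29 myeloid-like cells with 3 or more Lyve1 transcripts held 78.3, 57.7 and 48.3 Cd163 and 35.8, 25.4 and 33.8 Folr2 per 1000. They also held 45.9, 50.3 and 40.1 per 1000 of Ccl8, a monocyte-attracting chemokine gene, and only 0.524, 8.46 and 1.57 of Cx3cr1. The 44 and 43 Lyve1 cells of the Pecam1- and Cdh5-led class in tumours 1 and 2 were marked by other genes, with 24.7 and 26.4 Pecam1, 15.1 and 21.6 Cdh5 and 7.87 and 0.218 Cd163 per 1000. Tumour 3 had 2 such cells. Whether these were lymphatic vessels was not tested, as the panel holds no lymphatic marker other than Lyve1.

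Myeloid-like cells with 3 or more Ccr2 transcripts, 46 in tumour 1 and 32 in tumour 2, held 76.8 and 114 per 1000 of the class II antigen presentation gene H2-Aa. The mean of the whole myeloid-like class was 15.3 ± 8.12 (SD, n = 3). Their Cd163 level was 11.4 and 1.47 and their Cx3cr1 level 17.1 and 37.4 per 1000. The Ccr2 cells that were epithelial-like held 4.17, 1.08 and 0.225 per 1000 of H2-Aa in tumours 1, 2 and 3, against a class mean of 0.779 ± 0.347.

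Outside the myeloid-like class, Cd163 stood out in fibroblast-like cells, at 0.790, 1.06 and 0.588 per 1000, with a mean level 7.29 times that of epithelial-like cells. The highest blank in those cells, Blank-13, reached 1.02, 0.939 and 1.4, so Cd163 exceeded all 27 blanks in tumour 2 alone, 26 of them in tumour 1 and 24 in tumour 3. A finer clustering split the fibroblast-like cells in 2. In a cluster led by the matrix and adventitial fibroblast genes Clec3b, Sfrp4, Pi16 and Dpt (5733, 5339 and 4183 cells), Cd163 stood at 3.14, 3.12 and 2.44 per 1000, above the highest blank (1.07, 1.24 and 1.55) in every tumour. In the Col1a1- and Lrrc15-led cluster Cd163 stood at 0.492, 0.712 and 0.409.

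The Clec3b-led cluster also held more of the chemokine Ccl8 (2.49, 2.28 and 1.22 per 1000), Folr2 (1.47, 0.918 and 1.13) and Lyve1 (0.865, 0.646 and 0.557) than the Col1a1-led one, where Folr2 was 0.264 to 0.421 and Lyve1 0.103 to 0.154. In the Clec3b-led cluster, Lyve1 in all tumours, Folr2 in tumours 2 and 3 and Ccl8 in tumour 3 stayed below the highest blank. Adgre1 (0.842, 0.592 and 0.323 against 0.610, 0.387 and 0.177) and the myeloid transcription factor gene Spi1 (0.858, 0.664 and 0.555 against 0.519, 0.369 and 0.275) were also higher in the Clec3b-led cluster. Both stayed below its highest blank in every tumour. Cx3cr1 ran the other way, at 1.12, 1.02 and 0.735 against 2.72, 1.78 and 0.991. In the Clec3b-led cluster it exceeded the highest blank in tumour 1 alone. Cd163 itself was among the leading genes of the Clec3b-led cluster, although it took no part in the clustering. The 311, 385 and 115 fibroblast-like cells with 3 or more Cd163 transcripts held 338, 424 and 372 Col1a1 per 1000, against 52.4, 80.4 and 66.6 in the myeloid-like cells chosen the same way. Their Ccl8 level was 8.87, 8.75 and 4.58, against 44.6, 49.2 and 26.8. Whether such cells are single fibroblasts or outlines that cover a fibroblast and a macrophage was not tested.

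Cx3cr1 was the receptor found beyond the blanks in most classes. It stood at 2.63, 1.74 and 0.978 per 1000 in fibroblast-like cells and at 2.13, 1.53 and 0.820 in the Pecam1- and Cdh5-led class, and exceeded all 27 blanks there in tumours 1 and 2 and 26 of them in tumour 3. Among epithelial-like clusters, the one led by the basal keratins Krt5, Krt14 and Krt15 held 2.27, 1.67 and 1.01 per 1000, above the highest blank in all tumours, as in 10 of the 13 epithelial-like clusters. The Arg1-led cluster held 1.5, 1.95 and 0.538. A cluster led by the interferon-response genes Mx1, Ifit1 and Isg15, and by Axin2, held 0.522, 0.820 and 0.589 Ccr2 and 0.275, 0.595 and 0.444 Lyve1 per 1000. Ccr2 exceeded every blank there in all 3 tumours and Lyve1 in 2.

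Co-detection was measured as the number of cells holding both genes over the number expected if they fell independently among cells of equal depth. Within myeloid-like cells the highest ratios joined Cd163, Folr2 and Lyve1. Cd163 and Lyve1 met in 255, 68 and 87 cells, which was 8.51, 4.99 and 10.4 times the expected number. Cd163 and Folr2 gave 5.09, 5.45 and 6.80, and Folr2 and Lyve1 gave 5.21, 3.86 and 6.69. Ratios of a receptor with a blank had medians of 0.875 to 1.55 and reached at most 3.85, for Cd163 in tumour 3, where 7 blanks could be used. All 9 of these ratios therefore lay above the highest receptor-blank ratio of any tumour. In fibroblast-like cells the same pairs had mean ratios of 2.58 for Cd163 and Lyve1, 2.08 for Cd163 and Folr2 and 2.82 for Folr2 and Lyve1.

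In myeloid-like cells Cx3cr1 had ratios below 1 with each of these 3 genes. With Cd163 its ratio was 0.507, 0.634 and 0.740, with Lyve1 0.575, 0.818 and 0.714, and with Folr2 0.853, 0.844 and 0.927. The Folr2 ratios lay inside the spread of Cx3cr1 with blanks (0.418 to 1.42), as did the ratios with Cd163 and Lyve1 in tumour 3, while in tumours 1 and 2 no Cx3cr1-blank ratio was below 0.819. All of Cd163, Folr2 and Lyve1 were found in 195, 34 and 55 myeloid-like cells. Of those cells 6.67, 11.8 and 10.9% held Cx3cr1, against 53.0, 44.4 and 25.1% of the whole class. Requiring 2 or more transcripts of each gene left 4, 4 and 0 cells with both Cx3cr1 and Lyve1, and 144, 17 and 32 with both Cd163 and Lyve1.

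Adgre1 had ratios above 1 with Cx3cr1 and with the other set alike. Its ratio with Cx3cr1 was 1.33, 1.46 and 1.88, with Cd163 1.46, 1.55 and 1.95, with Folr2 1.55, 1.79 and 1.77, and with Lyve1 1.38, 1.38 and 2.26. Ratios of Adgre1 with blanks reached 1.19, 1.48 and 1.62, so in tumour 2 those with Cx3cr1 and Lyve1 lay within that range. Of the cells holding all of Cd163, Folr2 and Lyve1, 41.5, 55.9 and 25.5% held Adgre1, above its share of the class (23.2, 19.2 and 7.24%). Ccr2 showed no clear partner, with ratios of 0.927 to 1.03 with Cx3cr1 and 0.783 to 1.74 with the other 4 receptors. Cells of a class share their section and their depth, so these ratios describe each tumour and carry no test.

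**Figure D3:**
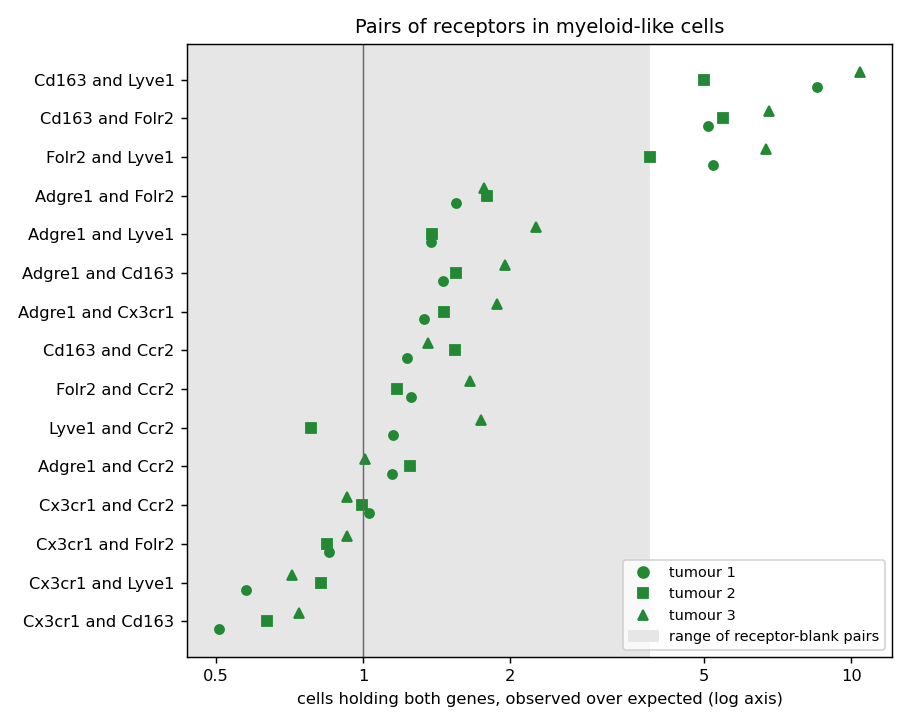
Observed over expected number of myeloid-like cells holding both receptors of a pair, on a log axis, with 1 point per tumour and a grey band over the range of ratios of receptors with blanks. The pairs among Cd163, Folr2 and Lyve1 stand at 3.86 to 10.4, and the pairs of Cx3cr1 with Cd163 or Lyve1 at 0.507 to 0.818.

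Over all kept cells, Adgre1 and Cx3cr1 gave co-detection ratios of 3.07, 3.13 and 2.52, and Cd163 gave 2.36, 1.96 and 1.60 with Folr2 and 3.03, 1.54 and 1.43 with Lyve1. Cx3cr1 gave 1.22 to 1.33 with Cd163, 1.11 to 1.28 with Folr2 and 1.02 to 1.07 with Lyve1. Its low ratios in myeloid-like cells were thus not seen over all kept cells. Outside the 6 receptors, 133 panel genes could be compared with each receptor, and they were ranked by the lowest ratio of the 3 tumours. The highest ranks for Adgre1 went to Csf3r (3.40, 3.02 and 2.11), H2-Aa (2.58, 2.80 and 1.81) and Il4ra (2.07, 1.75 and 1.45), the interleukin 4 receptor gene. For Cx3cr1 they went to Csf3r (2.20, 1.84 and 1.87), H2-Aa (2.09, 2.09 and 1.77) and Irf8 (1.5, 1.51 and 1.4).

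For Cd163 these genes were Csf3r (1.83, 1.98 and 1.69), Il4ra (1.52, 1.49 and 1.42) and the fibroblast matrix gene Dpt (1.94, 2.07 and 1.39). For Folr2 they were Il4ra, Csf3r and Dpt, at 1.17 to 1.49. For Lyve1 they were Klf4 (1.26 to 1.37), Isg15 (1.20 to 1.70) and H2-Aa (1.17 to 1.21), and for Ccr2 H2-Aa, Isg15 and Irf8 (1.07 to 1.34). Ratios of receptors with blanks reached 1.68 over the same cells. The genes above that value in all 3 tumours were Csf3r and H2-Aa with Adgre1, the same pair with Cx3cr1, and Csf3r with Cd163. No gene named for Folr2, Lyve1 or Ccr2 was above it in all 3 tumours.

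Neighbourhoods were read from the classes of other cells within 30 µm. A cell was placed in the stromal niche where at least 30% of its neighbours were fibroblast-like or of the Pecam1- and Cdh5-led class. Of all myeloid-like cells, 10.6, 23.6 and 12.7% lay in this niche. Among those with 2 or more transcripts of Cd163 the share was 83.9, 89.6 and 94.8% (428, 202 and 116 cells), and for Lyve1 it was 85.2 and 80% in tumours 1 and 2 (223 and 30 cells), and all 47 such cells of tumour 3 lay there. For Folr2 the share was 59.7, 77.7 and 82.5%. Cx3cr1 cells lay there in 5.15, 12.2 and 6.23% and Adgre1 cells in 15.1, 26.9 and 28.2%. Cells with 2 or more transcripts of any blank were in the stromal niche in 13.2, 28.6 and 13.0%, close to the class as a whole. Ccr2 cells lay there in 31.4 and 63.3% in tumours 1 and 2, and too few were found in tumour 3.

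Transcripts of myeloid-like cells were then summed per tumour in the stromal niche (2230, 2357 and 1052 cells) and in epithelial nests (6821, 3370 and 3424 cells), where at least 80% of the neighbours were epithelial-like and at most 5% stromal. The question is which receptors differ with the surroundings of a myeloid-like cell in the same tumour. Cd163 was at 17.2, 8.29 and 11.2 per 1000 in the stromal niche and at 0.166, 0.111 and 0.222 in nests, where it lay within the range of the blanks (median 0.164, highest 1.64, as means of 3 tumours). Folr2 was at 6.49, 2.44 and 5.20 against 0.867, 0.376 and 0.531. Lyve1 was at 4.44, 1.08 and 3.49 against 0.178, 0.262 and 0.203. The groups did not overlap for these 3 genes, as for 22.5% of all 258 genes in the same direction. Ccr2 stood at 1.68, 1.83 and 0.655 against 0.554, 0.467 and 0.286, with each stromal value above every nest value.

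Cx3cr1 ran the other way, at 10.2, 11.1 and 4.86 per 1000 in the stromal niche against 24.3, 25.7 and 10.7 in nests, lower in all 3 tumours although the ranges overlap between tumours. With a class set by a gate on myeloid marker transcripts in place of clusters, its log2 fold change turned to 0.31 (edgeR adjusted p = 0.589) and that of Adgre1 became 2.19 (edgeR adjusted p = 1.32e-06). Adgre1 was at 5.15, 4.09 and 1.78 against 4.40, 3.69 and 1.79. In edgeR's quasi-likelihood test with the tumour as a block and Benjamini-Hochberg adjustment over 258 genes, 21.3% of all genes were called higher in the stromal niche and 21.3% lower, 42.6% in either direction. Of the 6 receptors 4 were called higher and 1 lower. The log2 fold change was 6.19 ± 0.224 (SE) for Cd163 (edgeR adjusted p = 1.24e-20) and 3.59 ± 0.329 for Lyve1 (edgeR adjusted p = 1.66e-10). It was 2.92 ± 0.202 for Folr2 (edgeR adjusted p = 3.51e-13), 1.58 ± 0.230 for Ccr2 (edgeR adjusted p = 2.06e-06) and -1.25 ± 0.145 for Cx3cr1 (edgeR adjusted p = 2.74e-08). The Cd163 and Lyve1 levels in nests were within the range of the blanks, so the size of these 2 fitted folds rests on the background there. Folr2 and Ccr2 each exceeded the highest blank in nests in 1 of the 3 tumours, so the size of their folds may rest on it in part. Adgre1, at 0.09 ± 0.173, did not pass (edgeR adjusted p = 0.705).

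Some other values moved with this contrast. Of the 27 blanks, tested in the same way, 4 were called higher and none lower, with fold changes from -1.24 to 1.06 on the log2 scale. In tumour 3, Adgre1, Lyve1 and Ccr2 in stromal-niche cells stayed below the highest blank of those cells. Without the cells that held 5 or more transcripts of a single blank, Lyve1 gave 3.60, Ccr2 1.59 and Adgre1 0.10 on the log2 scale, and the first 2 again passed. The fibroblast collagen gene Col1a1 stood at 70.7, 94.4 and 90.8 per 1000 in stromal-niche myeloid-like cells and at 27.7, 22.7 and 27.7 in nests. Cd163 in fibroblast-like cells was 0.588 to 1.06 per 1000 and in their Clec3b-led cluster 2.44 to 3.14, below the 8.29 to 17.2 of stromal-niche myeloid-like cells. The part of neighbouring transcripts in the receptor differences was not tested. With cells nearer than 500 µm to the tissue edge left out, 921, 1142 and 275 stromal-niche cells remained and no receptor passed. Directions were kept for Cd163 (4.90, edgeR adjusted p = 0.0882), Folr2 (2.01, edgeR adjusted p = 0.0535), Lyve1 (2.41, edgeR adjusted p = 0.163), Ccr2 (1.61, edgeR adjusted p = 0.0679) and Cx3cr1 (-0.80, edgeR adjusted p = 0.0577), and Adgre1 came to -0.13.

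**Figure D4:**
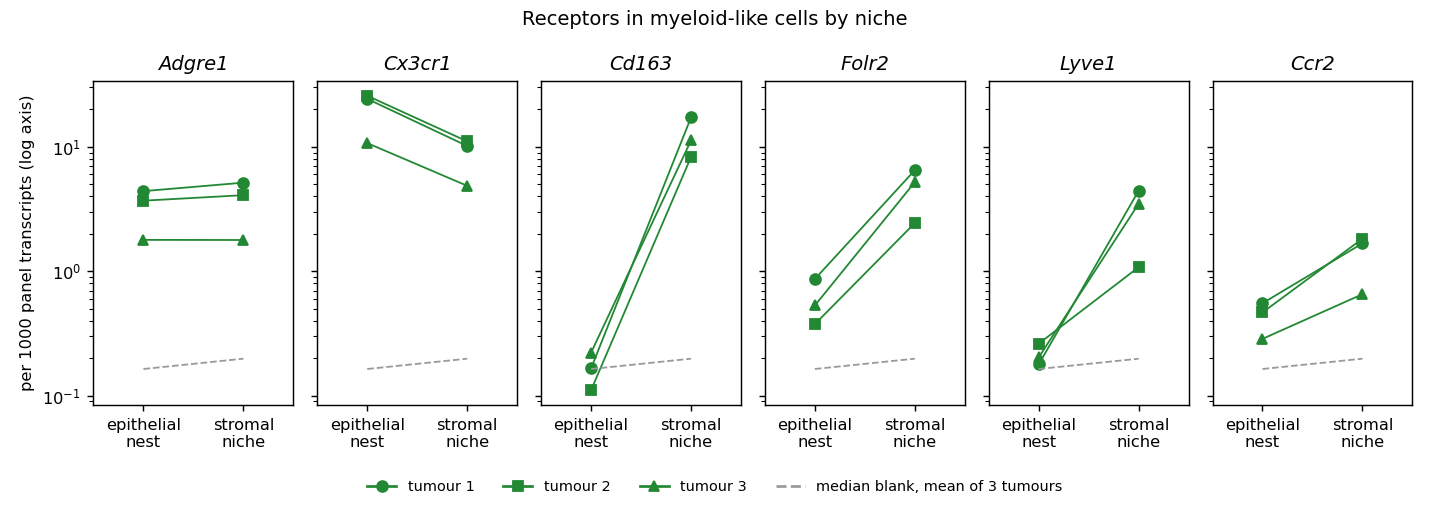
Receptor transcripts per 1000 panel transcripts, on a log axis, in myeloid-like cells of epithelial nests and of the stromal niche, with a line for each tumour and a dashed line for the median blank. Cd163 lies at 0.111 to 0.222 in nests and at 8.29 to 17.2 in the stromal niche. Cx3cr1 is lower in the stromal niche in each tumour, though not with the marker gate (0.31 on the log2 scale). Adgre1 is nearly level, though with that gate it was called higher in the stromal niche.

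Of 40 further macrophage genes listed for comparison, 12 are on the panel, and all were tested. Ccl8 (3.87 ± 0.25, edgeR adjusted p = 8.40e-14) and Ccl2 (0.72, edgeR adjusted p = 0.0117), both chemokine genes, were higher in the stromal niche. Arg1, which encodes the enzyme arginase 1 (-1.58, edgeR adjusted p = 2.74e-06), Cd14, an endotoxin co-receptor (-0.40, edgeR adjusted p = 0.0426), and the growth factor gene Csf1 (-0.43, edgeR adjusted p = 0.0498) were lower. The other 7 genes, among them H2-Aa and Spi1, did not pass. The median fold change of the 12 was -0.05 on the log2 scale and that of all genes -0.03, with members called in both directions.

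Position in the section was compared next, between myeloid-like cells within 150 µm of the tissue edge (2019, 1241 and 1117 cells) and those at 500 µm or more (14587, 6422 and 5590 cells). Cd163 was at 9.36, 7.56 and 11.9 per 1000 at the margin and at 1.15, 0.779 and 0.197 in the interior. Lyve1 was at 2.74, 1.29 and 3.82 against 0.405, 0.248 and 0.223, and Folr2 at 4.0, 2.28 and 5.13 against 1.07, 0.508 and 0.510. Margin values lay above all interior values for these 3 genes, as for 20.9% of all 258 genes. Ccr2 was at 1.28, 1.11 and 0.743 against 0.621, 0.645 and 0.324, again without overlap. At the margin Cd163, Folr2 and Lyve1 exceeded the highest blank in 3 tumours and Ccr2 in 2. In the interior Lyve1 exceeded it in 1 tumour, and Cd163, Folr2 and Ccr2 in 2. The size of the fitted folds given below may therefore rest in part on the background there. Cx3cr1 was lower at the margin in tumours 1 and 3 (14.9 against 20 and 5.01 against 8.13) and higher in tumour 2 (22.3 against 18.1).

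The same test called 6.20% of the 258 genes higher at the margin and 5.81% lower, 12% in either direction. Cd163 (log2 fold change 3.80 ± 0.607, edgeR adjusted p = 0.0230), Lyve1 (2.92 ± 0.353, edgeR adjusted p = 0.0165), Folr2 (2.30 ± 0.307, edgeR adjusted p = 0.0199) and Ccr2 (0.86 ± 0.159, edgeR adjusted p = 0.0408) were called higher, and no receptor was called lower. Of the 27 blanks 1 was called higher, and the blanks reached 0.88 on the log2 scale, about the size of the Ccr2 change. Adgre1 (0.16, edgeR adjusted p = 0.361) and Cx3cr1 (-0.41, edgeR adjusted p = 0.191) did not pass, and without tumour 2 Cx3cr1 was called lower (-0.69, edgeR adjusted p = 0.00181). Ccr2 did not pass without tumour 1 (edgeR adjusted p = 0.0819) or without tumour 3 (edgeR adjusted p = 0.123). Of the 12 other macrophage genes, Ccl8 alone was called, higher at the margin (2.54, edgeR adjusted p = 0.00101). Among stromal-niche cells only (678, 437 and 519 at the margin, 921, 1142 and 275 inside), no gene of the 258 passed. The receptor fold changes were then 2.32 for Cd163 (edgeR adjusted p = 0.261), 2.09 for Lyve1 (edgeR adjusted p = 0.171), 1.78 for Folr2 (edgeR adjusted p = 0.171) and 0.66 for Ccr2 (edgeR adjusted p = 0.265).

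Receptor transcripts in epithelial-like cells were compared between cells with a myeloid-like cell within 15 µm (115898, 40943 and 45205 cells) and cells with none within 50 µm (54600, 151777 and 310750 cells). Cx3cr1 stood at 2.07, 1.82 and 0.861 per 1000 beside myeloid-like cells and at 0.741, 0.939 and 0.465 far from them. Adgre1 stood at 0.274, 0.183 and 0.134 against 0.138, 0.108 and 0.0907, below the highest blank in either set. Both were higher beside myeloid-like cells in each tumour, while the values of tumour 3 beside overlapped those of tumours 1 or 2 far away. Even the far epithelial-like cells held Cx3cr1 above every blank, whose highest averaged 0.392 per 1000.

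Of all 258 genes 5.43% were called higher beside myeloid-like cells and 4.65% lower, 10.1% in either direction. Of the receptors 2 were called higher, Cx3cr1 (log2 fold change 1.01 ± 0.147) and Adgre1 (0.67 ± 0.0967), both at edgeR adjusted p = 0.0238. Without tumour 2 neither passed (both edgeR adjusted p = 0.293), nor did either pass without the tumour as a block, with the marker gate (0.32 and 0.20) or at distances of 25 and 75 µm (0.80 and 0.48). Cd163 (0.09, edgeR adjusted p = 0.592), Folr2 (0.00, edgeR adjusted p = 0.992), Lyve1 (-0.18, edgeR adjusted p = 0.210) and Ccr2 (-0.29, edgeR adjusted p = 0.0837) did not pass, and no blank was called. Beside myeloid-like cells the myeloid genes H2-Aa (0.84) and Spi1 (0.45), the only 2 called of the 12 listed macrophage genes, were also higher at the same adjusted p. Col1a1 stood at 20.8, 21.2 and 20.6 per 1000 there, against 13.1, 11.9 and 9.66 far away. The part of neighbouring transcripts in the 2 receptor differences was not tested.

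With distance, Cx3cr1 in epithelial-like cells went from 2.67, 2.30 and 1.07 per 1000 within 10 µm of a myeloid-like cell to 0.739, 0.961 and 0.488 at 50 to 100 µm. Adgre1 went from 0.344, 0.235 and 0.149 to 0.138, 0.110 and 0.0919. Folr2 moved little over the same distances, from 0.303, 0.281 and 0.276 to 0.275, 0.264 and 0.244.

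**Figure D5:**
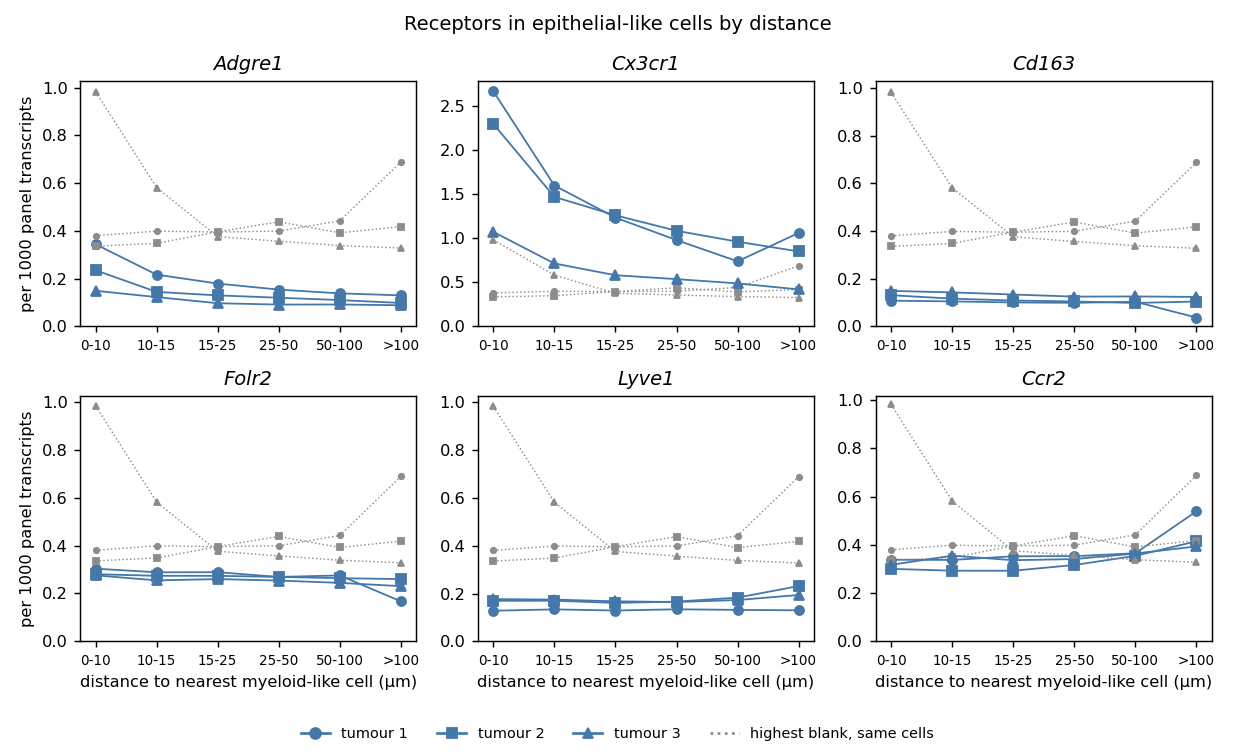
Receptor transcripts per 1000 panel transcripts in epithelial-like cells, on linear axes from 0, by distance in µm to the nearest myeloid-like cell, with a line per tumour and dotted lines for the highest blank in the same cells. Cx3cr1 declines from 1.07 to 2.67 within 10 µm to 0.488 to 0.961 at 50 to 100 µm and stays above the blanks, whereas Cd163, Folr2, Lyve1 and Ccr2 show no such decline.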

How the data were processed

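The authors deposited, for each segmented cell, unnormalized counts of transcripts of each gene and blank code, and, per the file headers, cell centres and volumes, taken here as µm and µm3. How spots were decoded and cells outlined was not given in the sources used here. Scanpy 1.9.3 is named in the submitters' processing notes, with no role, and the design text states 265 genes where the tables used here hold 258. The labels do not say whether the 3 tumours came from separate animals. With the tumour as a block, the p-values measure how the difference between arms varies among these sections, and not a spread between animals. edgeR also shares variance estimates over genes, so a small p-value does not rest on the 3 pairs of that gene alone.

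Cells with at least 20 panel transcripts, a volume of at least 50 µm3 and at most 3 times the section's median were kept. Log-scaled counts without the 6 receptors were clustered (30 principal components, 15 neighbours, leidenalg 0.10.2, resolution 1) in 20000 cells per section. Every kept cell, sampled cells included, was then assigned to the cluster whose gene profile gave its counts the highest multinomial likelihood. By this rule 73.1% of the sampled cells returned to their own cluster. Clusters were first named from at least 3 markers raised 2-fold or more over all other cells. The rest were called epithelial-like where at least 3 epithelial markers reached 1.5 times the mean of the clusters already named. Several of these, among them the Arg1-led cluster, held no epithelial marker raised 2-fold. The Arg1-led cluster had more markers of another class than epithelial ones among its leading genes. Details of these rules were settled after the clusters were seen. The Pecam1- and Cdh5-led class had only 2 endothelial markers on the panel and keeps the names of its leading genes. At resolution 2 a pericyte or smooth muscle cluster (6015, 5538 and 6466 cells) stood apart. No doublet caller was run. Counts summed per tumour and arm were tested with edgeR 4.0.16 (TMM, tumour as block, threshold 0.05). Both arms come from the same tumour, and their deviations from the arm means correlated at 0.474 to 0.839, so the tumour pairs them. The procedures were checked on simulated counts. With 3 tumours an exact sign-flip test cannot go below 0.25, so none is given. Depth was compared through thinning to 50 transcripts. Named genes were the 6 receptors, the 3 genes most often found with each and the listed macrophage genes. Further genes were named after their values were seen: leading genes of clusters, Mmp3, Col1a1, Pecam1 and Cdh5. The receptors and lists were chosen with earlier results of these data known. Alternatives covered normalization (DESeq2 1.42.0, library size), the low-count filter, the block, each tumour left out, clustering, a marker gate, thresholds and radii. Those on cells with many blanks, on the interior alone, on the stromal niche alone and on 1 epithelial cluster were chosen after seeing the data.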

Additional observations from a re-analysis of the deposited data

Results flagged for a closer look

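In myeloid-like cells of tumour 3, the code Blank-18, which matches no transcript, was counted at 3.63 per 1000 panel transcripts, against at most 0.424 for any blank in tumours 1 and 2. It stands out because it is a signal outside the measured genes. Leaving out 53 cells with 5 or more transcripts of a single blank brought the highest blank of that section to 0.568 per 1000. The cause was not tested.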

How the results depend on the processing

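The counts of called genes depended on the setting. For the stromal niche the count was 110, and 31 without the tumour as a replicate block, 70 to 85 with 1 tumour left out, the lowest without tumour 2, and 6 in the interior alone. For the margin it was 31, and 47 with DESeq2, 8 without the replicate block, 8 to 32 with 1 tumour left out, the lowest without tumour 3, 16 at resolution 2, 80 with a marker gate for the myeloid-like class, 54 for a margin of 75 µm and 0 in the stromal niche alone. For epithelial-like cells beside myeloid-like cells it was 26, and 79 with DESeq2, 0 without the replicate block, 0 to 41 with 1 tumour left out (0 without tumour 2, 41 without tumour 3), 7 at resolution 2, 0 with the gate, 9 with at least 40 transcripts per cell, 0 at 25 and 75 µm and 9 without 1 cluster. With library-size scaling the split of higher and lower genes went from 16 and 15 to 19 and 2 at the margin and from 14 and 12 to 27 and 10 beside myeloid-like cells, and the median of all genes shifted by 0.13 at the margin.

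Of 258 refitted log2 fold changes of the receptors, 221 kept direction and side of the threshold and 9 changed sign. Adgre1 in the stromal niche gave -0.32 at resolution 2, -0.027 with at least 40 transcripts and -0.13 in the interior, 2.19 with the gate and 0.73 at 50% stromal neighbours. At the margin Adgre1 gave -0.043 with clusters made from all genes and 1.02 with the gate. Cx3cr1 with the gate gave 0.31 in the stromal niche, 0.19 at the margin and 0.32 beside myeloid-like cells, and in the interior -0.80. At the margin it gave -0.69 to -0.21 with 1 tumour left out and -0.77 at 75 µm. In the interior Cd163 gave 4.90, Folr2 2.01, Lyve1 2.41 and Ccr2 1.61, and in the stromal niche alone 2.32, 1.78, 2.09 and 0.66. Ccr2 at the margin gave 0.85 without the replicate block, 0.78 to 0.97 with 1 tumour left out and 0.84 with clusters from all genes. Beside myeloid-like cells Cx3cr1 gave 1.03 without the block, 0.84 to 1.24 with 1 tumour left out, 0.80 at resolution 2 and 0.80 at 25 and 75 µm. Adgre1 there gave 0.70, 0.58 to 0.89, 0.20 with the gate and 0.48 at 25 and 75 µm. Folr2 gave -0.0082 with clusters from all genes, Lyve1 0.042 with the gate, and Ccr2 -0.26 with DESeq2 and 0.010 with the gate. Levels per 1000 in myeloid-like cells moved with the class, to 8.07 for Cx3cr1, 1.62 for Cd163, 0.811 for Folr2 and 0.474 for Lyve1 with the gate, to 0.933 and 0.411 for Cd163 and Lyve1 with clusters from all genes, and to 1.60 and 0.477 at resolution 2. With 2 transcripts of each gene required, mean co-detection ratios were 2.13 for Adgre1 and Cx3cr1, 21.3 for Cd163 and Folr2, 27.4 for Cd163 and Lyve1, 31.2 for Folr2 and Lyve1, 0.292 for Cx3cr1 and Cd163 and 0.0994 for Cx3cr1 and Lyve1. With 1 transcript enough, 62.0% of Cd163, 42.0% of Folr2 and 49.4% of Lyve1 cells lay in the stromal niche. The causes of these shifts were not tested. At this depth, 35.2 to 64.5% of myeloid-like cells held no receptor transcript.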
